A study of Mus musculus with 5 samples.

Results

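The nuclear-encoded subunits of the mitochondrial respiratory chain and the ATP synthase were compared between activated mouse CD4+ T cells, from mice given a tumor, and naive ones from other mice. Members were taken by symbol. They are the probe sets annotated to a single gene whose symbol begins with Nduf, Uqcr, Atp5, Cox4 to Cox8 or Sdh followed by a to d, together with Cyc1 and Cycs. The rule found 184 of 45101 probe sets, for 92 of 18193 genes. They cover 34 subunits of complex I, 4 of complex II, 9 of complex III, 19 of complex IV, 17 of complex V, cytochrome c and 8 assembly factors of complex I. Ndufa4 and its paralog Ndufa4l2 carry complex I names but were placed with complex IV. Ndufa11, Ndufs6 and Cox7b were not analysed here.

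All cells came from adult TCR-transgenic SCID mice of the Balb/c background, aged 7 to 12 weeks. Their transgenic T cell receptor recognises MOPC315, a plasma cell tumor, and the SCID defect leaves few lymphocytes other than the transgenic ones. The activated group has 3 arrays, each from a separate experiment in which axillary nodes draining a flank injection of 100000 MOPC315 cells in 250 µl of Matrigel were collected on day 8 and pooled. The mice numbered 12 to 15, and the cells were sorted as CD4+ GB113+ to a purity of at least 95%. The naive group has 2 arrays, from separate experiments on pooled nodes of naive mice of the same transgenic SCID kind. For the naive group, the number of mice and the purity of the cells are not given here. No group given Matrigel without tumor cells was analysed here.

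Complexes I to IV pass electrons from NADH and succinate to oxygen, with ubiquinone and cytochrome c as mobile carriers. Complexes I, III and IV pump protons across the inner mitochondrial membrane, and complex V, the ATP synthase, lets them back in to make ATP. Mitochondrial DNA encodes some subunits of every complex except complex II. T cells that leave the resting state are known to take up more glucose and also to expand their mitochondria.

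Few of these transcripts passed the test, and the gene that did in the gene fit belongs to complex IV. Cox8a, a small subunit of cytochrome c oxidase, was 1.79-fold higher in activated cells. Of 89 tested members, 1 was called higher (1.12%) and 0 lower, against 6.36% higher and 4.14% lower among all 12873 genes tested. The test was limma's, on log2(intensity + 16), with a Benjamini-Hochberg adjusted p under 0.05. At an unadjusted p under 0.05 there were 19 members, 18 of them with a positive change. The standard errors of the members' log2 changes had a median of 0.17. The number of arrays limits the precision of each value.

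Most of the estimates nevertheless had the same sign. The log2 change was positive for 66 of 89 members (74.2%), against 46.9% of all genes tested, and its median was 0.18 against -0.03. In 31 members (34.8%) every activated array lay above both naive arrays, where 20.3% of all genes tested did so. In 5 members (5.62%) every activated array lay below both naive arrays, against 20.7% of all genes. These counts describe the list and are not a test of it. Complexes were set side by side and were not tested against each other. In bulk samples a smaller share of cells that express a gene and less of its RNA per cell cannot be told apart.

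**Figure D1:**
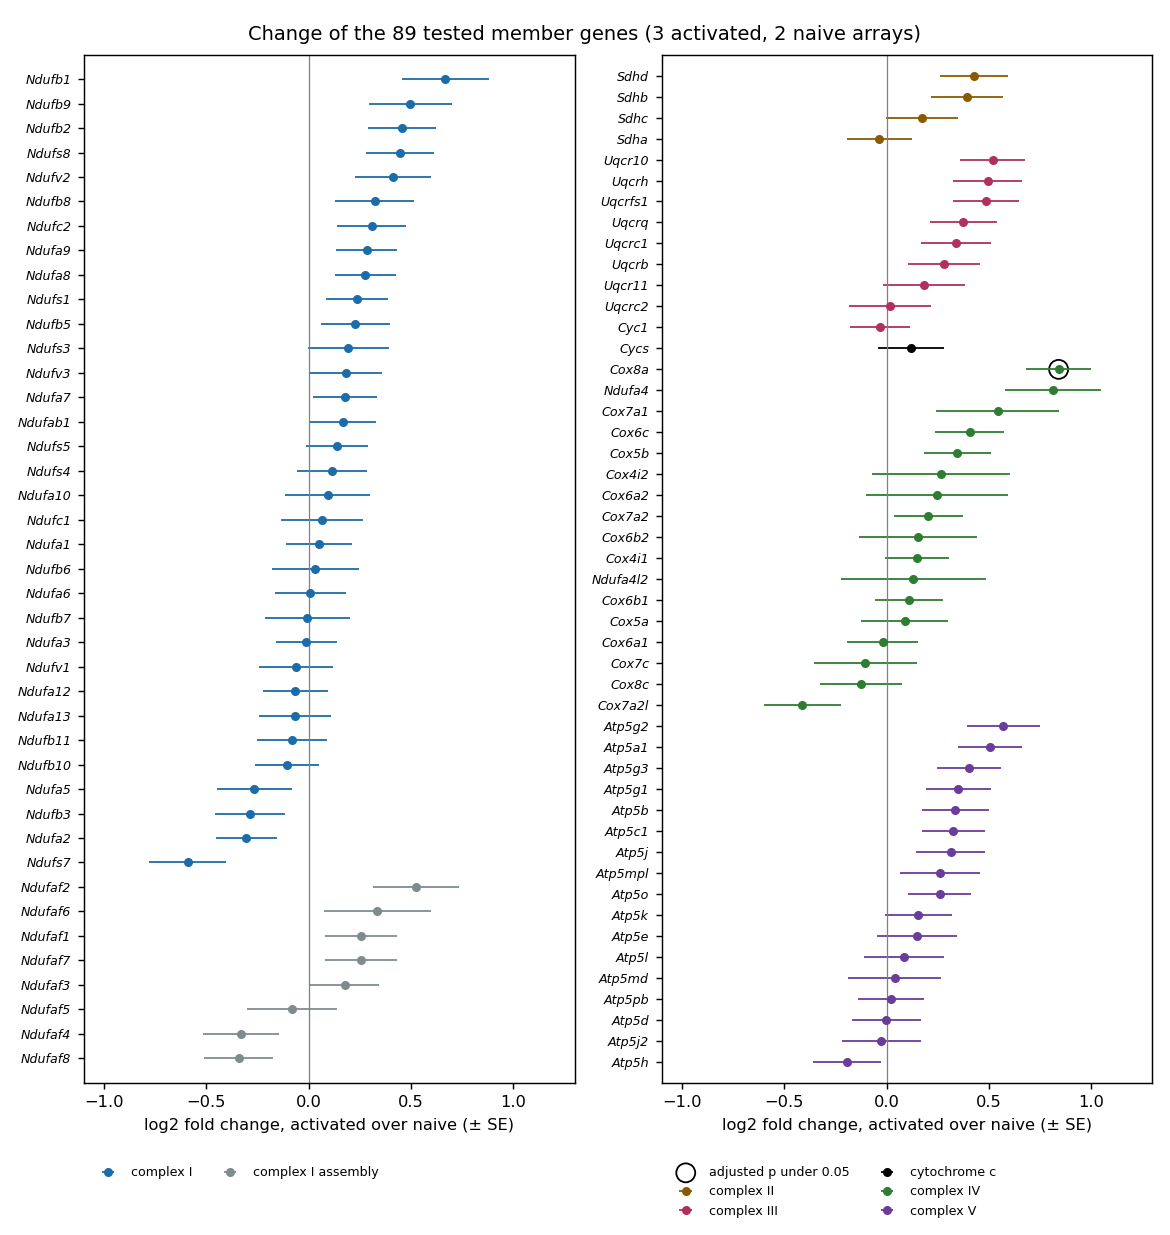
Log2 fold change, activated over naive, with its standard error for each of the 89 tested member genes, in colour by complex (3 activated and 2 naive arrays). Most points lie to the right of 0, and the circled Cox8a, at 0.84, is the gene past the threshold.

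These counts differed between subsets of the arrays. The bioC hybridisation control, a spiked transcript, split the arrays. Its log2 value was 9.34 to 9.52 on activated 1, activated 2 and naive 1, and 7.53 and 7.80 on activated 3 and naive 2. The labels do not give this split; it was found in the data. Among the first 3 arrays the median log2 difference of the members, activated minus naive, was 0.28, and 76 of 89 were positive. Between activated 3 and naive 2 the median was 0.04, and 50 of 89 were positive. The naive arrays also differed from each other, since 64 of 89 members were higher on naive 2 than on naive 1, by a median of 0.15 on the log2 scale against 0.0030 for all genes tested.

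**Figure D2:**
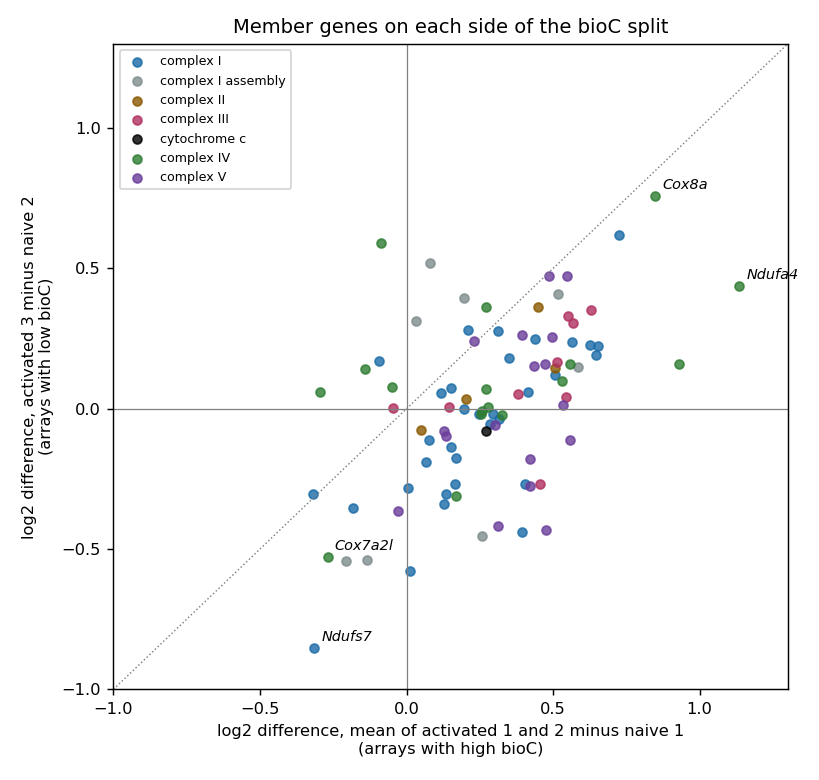
Each point is 1 tested member gene, with the log2 difference of activated minus naive among the arrays of high bioC on the horizontal axis and between the 2 arrays of low bioC on the vertical axis, in colour by complex. Most points lie right of 0, with a median of 0.28, but they scatter around a median of 0.04 on the vertical axis; Cox8a is far from 0 on both.

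With the split as a block in the fit, 8 members were called higher and 1 lower, where 8.46% of all genes tested were called higher and 6.67% lower. Those higher were Cox8a (log2 change 0.81, limma's adjusted p = 0.00165), Atp5g2 (0.52, adjusted p = 0.014), Atp5a1 (0.48, adjusted p = 0.019), Uqcrh (0.46, adjusted p = 0.029), Ndufa4 (0.84, adjusted p = 0.030), Uqcr10 (0.51, adjusted p = 0.032), Uqcrfs1 (0.46, adjusted p = 0.036) and Ndufs8 (0.47, adjusted p = 0.042). Ndufs7 was the member called lower (-0.55, adjusted p = 0.033). Without the block, of these, Cox8a alone passed the threshold.

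The promoters of some members hold letters bound by factors known for their role in respiratory chain genes. These factors are NRF1, GABP (an ETS factor) and YY1. RefSeq promoter windows (GRCm38.p6, 250 bases before to 50 after the start) were matched for 75 of 92 members. Both strands were searched for CGCATGCG (NRF1), CCGGAAGT (GABP), AAGATGGCG (YY1) and CACGTG (the E-box). The NRF1 letters were in 11 of 75 members (14.7%), against 2.07% of 27025 genes in the table. The YY1 letters were in 7 (9.33%) against 1.64%. The GABP letters were in 5 (6.67%) against 4.31%, and the E-box in 6 (8.00%) against 8.09%. The letters of these motifs do not overlap in the windows shown. They were chosen after the intensities had been seen.

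Cox8a is shown because it was called higher, and the others as examples of NRF1 or GABP letters close before the start; this choice was made after the search. Each run is 110 bases before to 10 after the start, 5′ to 3′ on the gene's strand, with the matched letters in capitals. All 7 genes lie on the minus strand.
Cox8a, chr19:7217607-7217726: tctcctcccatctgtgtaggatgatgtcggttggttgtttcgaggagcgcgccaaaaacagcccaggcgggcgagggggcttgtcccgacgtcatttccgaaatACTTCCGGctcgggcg
Uqcrh, chr4:116075061-116075180: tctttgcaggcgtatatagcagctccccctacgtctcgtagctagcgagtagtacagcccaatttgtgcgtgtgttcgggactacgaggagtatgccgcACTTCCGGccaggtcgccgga
Uqcr11, chr10:80406812-80406931: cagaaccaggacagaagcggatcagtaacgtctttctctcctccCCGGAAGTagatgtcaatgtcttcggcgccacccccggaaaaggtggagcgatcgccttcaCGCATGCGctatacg
Ndufa8, chr2:36049329-36049448: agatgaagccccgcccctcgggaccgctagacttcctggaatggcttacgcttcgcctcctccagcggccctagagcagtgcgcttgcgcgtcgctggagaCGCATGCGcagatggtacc
Cycs, chr6:50566560-50566679: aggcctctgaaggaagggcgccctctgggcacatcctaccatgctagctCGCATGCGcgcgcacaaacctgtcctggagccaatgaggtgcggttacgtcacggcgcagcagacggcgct
Atp5g2, chr15:102671038-102671157: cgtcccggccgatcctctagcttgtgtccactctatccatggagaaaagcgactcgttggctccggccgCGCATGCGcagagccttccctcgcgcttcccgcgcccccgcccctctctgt
Atp5k, chr5:108434390-108434509: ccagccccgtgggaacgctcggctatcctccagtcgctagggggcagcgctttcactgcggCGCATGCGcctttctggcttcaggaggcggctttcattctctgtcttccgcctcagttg

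In Cox8a the GABP letters, read on the opposite strand, begin 6 bases before the start, and in Uqcrh they begin 11 bases before it. Uqcr11 holds both GABP letters, 66 bases before the start, and NRF1 letters, 5 bases before it. The NRF1 letters begin 9 bases before the start in Ndufa8, 41 in Atp5g2, 49 in Atp5k and 61 in Cycs. The log2 changes of these genes were 0.84 in Cox8a, 0.57 in Atp5g2, 0.49 in Uqcrh, 0.28 in Ndufa8, 0.18 in Uqcr11, 0.16 in Atp5k and 0.12 in Cycs. Of these Cox8a passed the test. All 7 estimates were positive, but those of other genes with the letters were not: Atp5h, with GABP letters 39 bases before the start, was at -0.19, and Ndufaf4, Ndufaf5 and Cox6a1, with NRF1 letters, were at -0.33, -0.08 and -0.02. Over all members with the letters, 8 of 11 were positive for NRF1, 4 of 5 for GABP and 4 of 7 for YY1, against 66 of 89 members in all.

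Complex I is the NADH dehydrogenase, and 33 of its 34 measured subunits were tested. None passed the test in the gene fit. The median log2 change was 0.12, with 22 of 33 positive. It was 0.22 for the 6 core subunits, among them the flavin and iron-sulfur subunits, and 0.09 for the 27 tested accessory subunits. Among the arrays of high bioC the median was 0.21, and between those of low bioC it was -0.02. The median of all complex I changes ran from 0.08 to 0.19 when any 1 array was left out. The activated arrays all lay above the naive ones in 8 subunits (24.2%, against 20.3% of all genes tested). They all lay below in 3 (9.09%, against 20.7%).

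Ndufs8, an iron-sulfur subunit of the ubiquinone module, had 6 tested probe sets. The brightest read 1291.7, 1328.3 and 1273.5 on the activated and 826.8 and 1087.5 on the naive arrays, a log2 change of 0.45 ± 0.17 (SE; limma's adjusted p = 0.13), which was 0.25 without naive 1. Another, 1423907_a_at, gave 1695.7, 1109.4 and 949.1 against 629.9 and 674.7. In the fit of all 29240 tested probe sets, that probe set was called higher (0.88 ± 0.23, limma's adjusted p = 0.047). Activated and naive values did not overlap for 5 of the 6 probe sets, and the sixth, the dimmest, had a negative change of -0.27.

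Ndufv2, an iron-sulfur subunit of the NADH module, had 3 tested probe sets. Probe set 1428179_at gave 1375.4, 1338.4 and 1120.7 against 816.6 and 772.7 and was called higher (log2 change 0.67 ± 0.17 SE, limma's adjusted p = 0.037 over probe sets). The 2 other probe sets had log2 changes of 0.41 each and were not called; for the brightest it was 0.17 without naive 1 and 0.65 without naive 2. In all 3, activated values lay above naive values. Over all members 4 probe sets of 171 tested were called higher, 2 of Cox8a and 1 each of Ndufs8 and Ndufv2, and 0 were called lower. Among all probe sets tested, 4.8% were called higher and 2.94% lower. The calls of Ndufs8 and Ndufv2 were both lost when activated 1, activated 2, naive 1 or naive 2 was left out; with activated 1, naive 1 or naive 2 left out 1 member probe set remained called higher, and with activated 2 left out 0.

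Ndufs7, the iron-sulfur subunit next to the ubiquinone site, had the most negative estimate of all members. Its brightest probe set gave 696.2, 643.3 and 690.1 on the activated and 836.7 and 1260.8 on the naive arrays. All activated values lay below the naive values, which differed widely from each other. The log2 change was -0.59 ± 0.19 (SE; limma's adjusted p = 0.078). Without naive 1 it was -0.88 and was called lower (limma's adjusted p = 0.029), and without naive 2 it was -0.30. The other probe set of Ndufs7, 1451312_at, overlapped between groups and had a log2 change of -0.04.

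The flavin subunit Ndufv1, where NADH is oxidised, gave 518.2, 525.9 and 553.6 against 463.9 and 669.3, so the naive arrays enclosed the activated ones. Ndufs1, an iron-sulfur subunit of the NADH module, gave 400.1, 430.9 and 429.1 against 357.2 and 350.6, a log2 change of 0.24 ± 0.15 (SE; limma's adjusted p = 0.38). Ndufs3 had a log2 change of 0.19, and its groups overlapped.

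Among accessory subunits the largest positive estimates were those of Ndufb1 and Ndufb9, both in the membrane arm. Ndufb1 was dim, at 50.5, 70.8 and 60.8 against 30.0 and 34.0, and had a log2 change of 0.67 ± 0.21 (SE; limma's adjusted p = 0.077). Ndufb9 had a log2 change of 0.50, but activated 3 (950.8) lay just below naive 1 (959.7). The most negative were Ndufa2, with 1451.4, 1547.9 and 1465.3 against 1871.9 and 1813.6 and a log2 change of -0.31 ± 0.15 (SE; limma's adjusted p = 0.24), and Ndufb3, at -0.29. In both genes the groups did not overlap. Ndufab1, the mitochondrial acyl carrier protein, had a log2 change of 0.17.

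**Figure D3:**
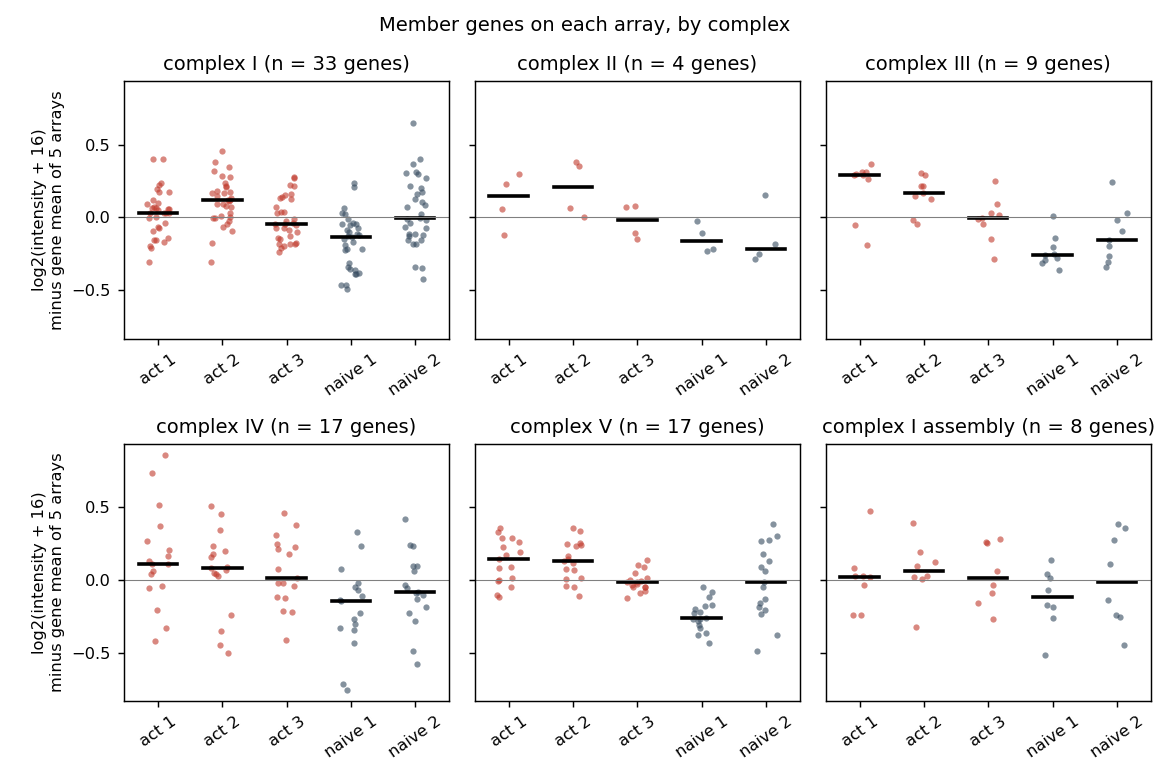
Log2(intensity + 16) of each tested member minus its own mean over the 5 arrays, by array and complex, with activated arrays in red, naive arrays in dark grey and black bars at the median. In complexes III and V activated 1 and 2 sit highest and naive 1 lowest, and naive 2 lies near activated 3 in complex V.

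The 8 assembly factors of complex I, which act in building it but are not part of the enzyme, were all tested, and none passed. Their median log2 change was 0.22, with 5 of 8 positive. Ndufaf2 gave 132.9, 106.4 and 88.5 against 78.3 and 62.7, with no overlap and a log2 change of 0.52 ± 0.21 (SE; limma's adjusted p = 0.16). Ndufaf8 gave 524.4, 665.1 and 513.3 against 684.9 and 754.9, with no overlap the other way and a change of -0.34. Ndufaf1, Ndufaf3, Ndufaf6 and Ndufaf7 had log2 changes of 0.18 to 0.34, Ndufaf4 of -0.33 and Ndufaf5 of -0.08.

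Complex II, the succinate dehydrogenase, is also an enzyme of the citric acid cycle, and none of its 4 genes passed the test. Sdhb, the iron-sulfur subunit, gave 1237.3, 1351.2 and 977.0 against 905.5 and 881.4, a log2 change of 0.39 ± 0.17 (SE; limma's adjusted p = 0.20). Sdhd, a membrane anchor, gave 428.2, 538.3 and 432.5 against 347.8 and 333.0, a change of 0.43 ± 0.17 (SE; limma's adjusted p = 0.14). In both genes all activated arrays lay above the naive ones. The flavin subunit Sdha had a log2 change of -0.04 and the other anchor, Sdhc, one of 0.17, with overlap in both.

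Complex III, the cytochrome bc1 complex, had a median log2 change of 0.34, with 8 of 9 positive, and none of its genes passed the test. That median was 0.18 with the mean of probe sets. The median was 0.51 among the arrays of high bioC and 0.05 between those of low bioC. Uqcr10, a small accessory subunit, gave 696.2, 603.9 and 571.8 against 413.7 and 444.6, a log2 change of 0.52 ± 0.16 (SE; limma's adjusted p = 0.068). Uqcrh, the hinge subunit, gave 3437.9, 3453.6 and 2777.1 against 2344.6 and 2203.7 (0.49 ± 0.17 SE, limma's adjusted p = 0.096). Uqcrfs1, the Rieske iron-sulfur subunit, gave 935.3, 934.2 and 758.9 against 624.7 and 610.8 (0.49 ± 0.16 SE, limma's adjusted p = 0.089).

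In these 3 genes, in Uqcrq (0.37) and in the core subunit Uqcrc1 (0.34), no activated array overlapped the naive ones. The other core subunit, Uqcrc2, gave 1578.0, 1745.7 and 2139.1 against 1498.0 and 2131.0 and was highest on activated 3 and naive 2, the arrays of low bioC. Cyc1, cytochrome c1, was level on all arrays, at 1183.2, 1211.7 and 1250.7 against 1236.5 and 1249.3, with a log2 change of -0.03 ± 0.15 (SE). Cycs, the cytochrome c that carries electrons to complex IV and is released in apoptosis, gave 3483.7, 3580.6 and 3204.4 against 2923.6 and 3383.5 (0.12 ± 0.16 SE), and its groups overlapped.

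Complex IV, cytochrome c oxidase, held the called gene, and 17 of its 19 measured genes were tested. The median log2 change was 0.15, with 13 of 17 positive. It was 0.27 among the arrays of high bioC and 0.08 between those of low bioC. Every activated array lay above the naive ones in 5 genes (29.4%, against 20.3% of all genes tested). In 1 gene every one lay below (5.88%, against 20.7%). Cox8a gave 824.4, 873.9 and 718.9 with activation and 464.9 and 418.8 without, or 805.7 ± 79.2 (SD, n = 3) against 441.9 ± 32.6 (SD, n = 2). The groups were far apart next to the spread within them. The log2 change was 0.84 ± 0.16 (SE; limma's adjusted p = 0.0072), and it was 0.85 among the arrays of high bioC and 0.76 between those of low bioC. Without activated 2 it was 0.78 (limma's adjusted p = 0.050), and without naive 2 it was 0.77 (limma's adjusted p = 0.075), so the call was lost in both.

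A second Cox8a probe set, 1448222_x_at, gave 806.0, 823.0 and 587.7 against 323.2 and 399.1 and was also called higher (log2 change 0.99 ± 0.20 SE, limma's adjusted p = 0.014 over probe sets). The third was dim, at 3.0 to 22.8 on the 5 arrays, with a change of -0.20. With the mean of all 3 the change of Cox8a was 0.54 (limma's adjusted p = 0.035).

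Ndufa4 missed the threshold narrowly. It gave 1060.9, 643.5 and 733.5 against 367.7 and 537.7, without overlap, and a log2 change of 0.81 ± 0.23 (SE; limma's adjusted p = 0.054). Activated 1 and naive 1 were the extremes. Its paralog Ndufa4l2, known for induction by hypoxia, lay between 4.3 and 24.6 on all 5 arrays, close to the level of 10.5 to 13.4 used as the filter.

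Cox6c gave 2435.8, 2757.0 and 2134.4 against 1754.2 and 1907.6 (log2 change 0.41 ± 0.17 SE, limma's adjusted p = 0.17), and Cox5b had a log2 change of 0.35 (0.22 without naive 1); activated arrays lay above naive ones in both. Cox4i1, the common form of subunit 4, had a log2 change of 0.15, Cox6a1 of -0.02, Cox6b1 of 0.11 and Cox7a2 of 0.20, each with overlap. Cox7c was at -0.11, also with overlap, but its brightest probe set was dim, at 61.4 to 120.9. Cox7a2l, which helps join complexes III and IV into supercomplexes, gave 1617.4, 2228.1 and 2003.5 against 2291.9 and 2900.1. Its activated arrays lay below the naive ones, with a log2 change of -0.41 ± 0.19 (SE; limma's adjusted p = 0.21), which was -0.24 without naive 2. A second probe set of Cox7a2l also did not overlap (-0.48), and the third overlapped (-0.16).

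Most isoforms of complex IV that are known from muscle, lung or testis read near the filter level of 10.5 to 13.4. Cox7b2 and Cox8b did not pass the filter. Cox4i2 (3.7 to 23.8), Cox6b2 (10.4 to 29.5) and Cox7a1 (0.9 to 17.4) passed it on some arrays and Cox6a2 (18.9 to 64.4) on all 5, and none was called. Cox8c, a testis isoform, read well above it on all arrays, at 75.5 to 111.0, with a log2 change of -0.12.

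Complex V had a median log2 change of 0.26 with 14 of 17 positive, and none of its genes passed the test. In 8 genes (47.1%, against 20.3% of all genes tested) every activated array lay above the naive ones. In 0 every one lay below, against 20.7% of all genes tested. The median was 0.42 among the arrays of high bioC and -0.06 between those of low bioC; it was 0.08 without naive 1 and 0.40 without naive 2. The catalytic head was represented by Atp5a1, the alpha subunit, with 2502.6, 2498.8 and 2225.6 against 1781.3 and 1600.7 (0.51 ± 0.16 SE, limma's adjusted p = 0.069), and by Atp5b, the catalytic beta subunit, with 3664.5, 3309.3 and 2927.3 against 2572.2 and 2630.2 (0.34 ± 0.16 SE, limma's adjusted p = 0.25).

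The 3 genes for the c subunit of the rotor ring make the same mature protein. Atp5g2 gave 1896.6, 1868.4 and 1461.8 against 1282.3 and 1049.8 (log2 change 0.57 ± 0.18 SE, limma's adjusted p = 0.073). Atp5g3 had a log2 change of 0.40 ± 0.16 (SE; limma's adjusted p = 0.15) and Atp5g1 one of 0.35 ± 0.16 (SE; limma's adjusted p = 0.21). None of the 3 overlapped between groups. In the stalk and membrane part, Atp5h, the d subunit, had the most negative change of the complex, at -0.19, with 3765.3, 3927.9 and 3810.1 against 3924.3 and 4909.5. The brightest probe sets of Atp5j2 and Atp5d had log2 changes of -0.03 and -0.0013, with the activated arrays within the naive range. In 1416269_at of Atp5j2 (0.39) and 1423716_s_at of Atp5d (0.41), every activated array lay above the naive ones.

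A gene's probe sets often differed in direction. Of 92 member genes 52 had several probe sets, 50 had several tested ones, and in 26 of these the tested probe sets had both signs. Dim probe sets were among the opposite ones. For Cox5b, 4 bright probe sets had log2 changes of 0.35 to 0.54, while 1436149_at, at 14.1 to 79.4, had one of -0.97. For Uqcrq the brightest had a log2 change of 0.37 and 1452613_at, at 12.9 to 37.5, one of -0.77. For Cox5a, 1448153_at gave 1896.9, 1688.0 and 1437.3 against 1111.7 and 1198.6 (0.52), while the brightest gave 2666.2, 3234.1 and 3657.7 against 2422.1 and 3640.3 (0.09) and overlapped.

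The kind of probe set also went with the difference between the naive arrays. A suffix of a, s or x in a probe set's name marks sequence shared with other transcripts, and 87 of the 171 tested member probe sets have one. These were higher on naive 2 than on naive 1 in 73 of 87, by a median of 0.23 on the log2 scale. The 84 without a suffix were higher on naive 2 in 43, with a median of 0.01. Over all tested probe sets the medians were -0.004 with and -0.08 without a suffix. This split was examined after the values had been seen.

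**Figure D4:**
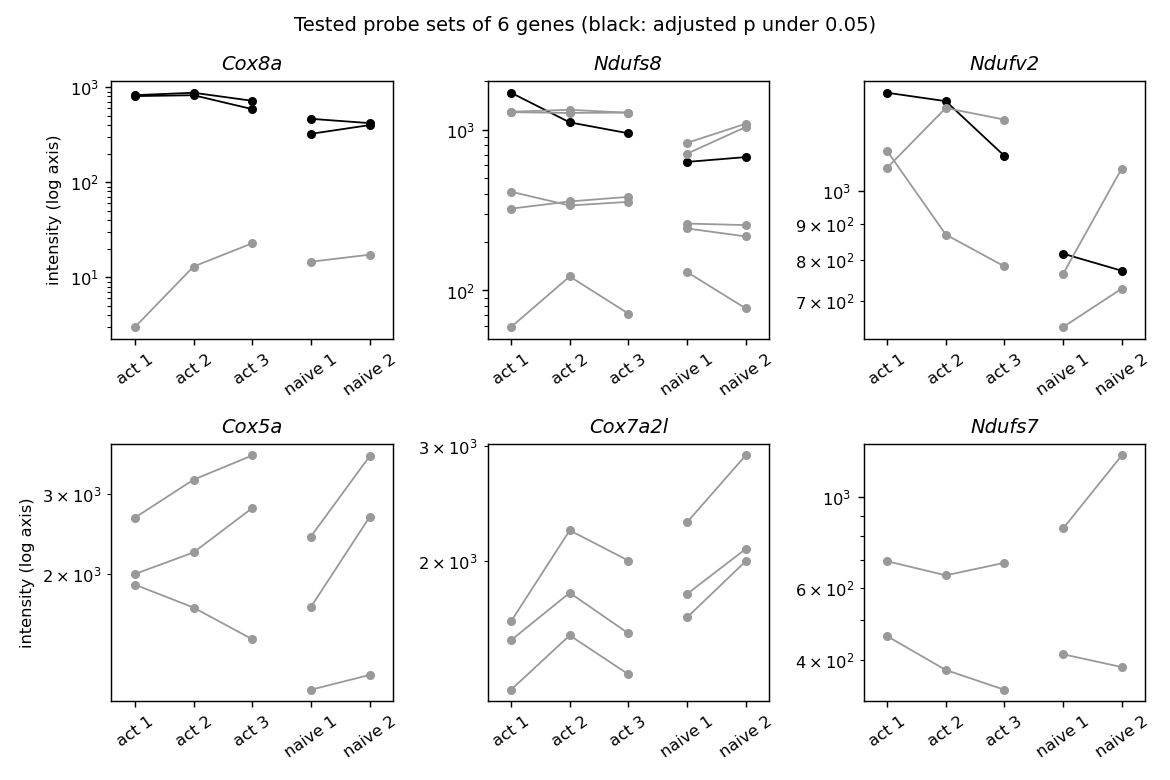
Intensity on a log axis of every tested probe set of 6 member genes on each array, with points of 1 probe set joined within a group and called probe sets in black. The 2 called probe sets of Cox8a and those of Ndufs8 and Ndufv2 lie higher in activated cells, while probe sets of Cox5a and Ndufs7 differ from one another.

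Other genes of the pathway were given by lists drawn up with earlier results of these data known. The shares called among all genes tested, 6.36% higher and 4.14% lower, are the background for each list. Of 36 assembly and insertion factors outside the rule, 4 (11.1%) were called higher and 0 lower, with a median log2 change of 0.03. Atpif1, the inhibitor of the ATP synthase, gave 449.5, 557.5 and 573.3 against 170.4 and 259.0 (1.25 ± 0.20 SE, limma's adjusted p = 0.0029); its value was -0.12 with the probe sets that have no suffix. Sdhaf1, an assembly factor of complex II, gave 267.1, 239.9 and 275.1 against 115.3 and 147.5 (0.92 ± 0.17 SE, limma's adjusted p = 0.0074), a call lost without naive 1 (0.76).

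Acad9, which acts in complex I assembly, had a log2 change of 0.89 (limma's adjusted p = 0.015), a call lost without naive 1 (0.94) or naive 2 (0.85). Oxa1l, the inner membrane insertase, had a log2 change of 0.65 (limma's adjusted p = 0.028), a call lost when any 1 array was left out (0.62 to 0.66) and turned to -0.19 with probe sets that have no suffix. No activated array overlapped the naive ones in any of these 4 genes.

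Of 19 regulators of mitochondrial genes and mitochondrial DNA, 0 were called higher and 2 lower, with a median of -0.23 and 3 of 19 positive. Ppargc1b, a coactivator of mitochondrial biogenesis, gave 121.7, 121.0 and 104.9 against 225.5 and 258.6 (-0.97 ± 0.17 SE, limma's adjusted p = 0.0049), a call lost without naive 2 (-0.88). Its relative Pprc1 had a log2 change of -0.61 (limma's adjusted p = 0.039), a call lost without activated 2, activated 3, naive 1 or naive 2 (-0.64 to -0.57). Nrf1, the factor of the promoter letters above, gave 138.4, 162.7 and 136.8 against 219.6 and 210.4, with no overlap and a change of -0.52 (limma's adjusted p = 0.085). Gabpb1 and Gabpa, subunits of GABP, had log2 changes of 0.48 (limma's adjusted p = 0.16) and -0.28 (limma's adjusted p = 0.46). Yy1 was at -0.13, and the groups overlapped in Gabpa and Yy1.

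Of 13 citric acid cycle genes, 1 was called higher and 0 lower, with a median of 0.23 and 10 of 13 positive. The called gene, Fh1, the fumarase, gave 811.3, 870.2 and 755.4 against 464.4 and 512.1 (0.72 ± 0.15 SE, limma's adjusted p = 0.014), a call lost without activated 2 (0.67), naive 1 (0.65) or naive 2 (0.78). Of 6 genes that feed electrons to ubiquinone by other routes, Etfb, a subunit of the electron transfer flavoprotein, was called higher (0.67, limma's adjusted p = 0.024), a call lost when any 1 array was left out (0.62 to 0.74).

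Of 9 genes of cristae and the inner membrane, 1 was called higher and 0 lower, with a median of 0.38. That gene, Chchd3, had a log2 change of 0.66 (limma's adjusted p = 0.037), a call lost without activated 1, activated 2, naive 1 or naive 2 (0.56 to 0.71), and of 0.22 with the mean of its probe sets. Of 4 genes of uncoupling and nucleotide exchange, Slc25a5, an ADP/ATP carrier, gave 4169.9, 4204.7 and 3473.4 against 2509.8 and 2273.7 and was called higher (0.72 ± 0.17 SE, limma's adjusted p = 0.021). That call was lost without activated 1, activated 2, naive 1 or naive 2 (0.65 to 0.79).

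All 7 tested markers of T cells were above the filter on all arrays, with Cd3d at 4041.8 to 4906.0 and Cd4 at 732.6 to 1119.4. Of these Thy1 was called lower in activated cells (log2 change -0.79, limma's adjusted p = 0.017), and Cd3e was at -0.33 without a call. Among markers of other cells, Cd22 of the B cell list was called higher (1.21, limma's adjusted p = 0.0086), but 3 of the 5 tested there were negative. Eomes of the NK list was called higher (2.19, limma's adjusted p = 0.0086), but 2 of the 4 tested there were negative, with Prf1 at -1.48. Ctrb1 of the exocrine pancreas list was called lower (at most 4.2 on the activated and at least 22.6 on the naive arrays, limma's adjusted p = 0.027). In that list 4 of the 5 tested were negative, and Prss2 was at 0.63 without a call. All 7 tested proliferation genes were called higher, with a median log2 change of 3.26. The summed intensity of 10 myeloid markers was 4248.7, 144.9 and 899.2 on the activated and 390.4 and 232.1 on the naive arrays, and Lyz2 was at 1953.9 on activated 1 but 35.8 on activated 2. Cd8b1 gave 326.5, 246.8 and 275.0 on the activated and 797.6 and 995.7 on the naive arrays and was called lower (limma's adjusted p = 2.8e-04). Cox8a had a log2 change of 0.82 without activated 1, the array with the most myeloid signal (limma's adjusted p = 0.025). The part of proliferation and of other cells in the changes of the members was not tested.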

How the data were processed

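Biotin-labelled cRNA, made from 6 µg of total RNA per the labels' protocols, was measured on 5 Affymetrix mouse arrays. The deposited table gives 1 linear intensity per probe set and array. For the summary method, software and detection calls, the sources used here give nothing. The 2% trimmed mean was 100 on each array, as a global scaling would leave it, so changes are relative to the average probe set. Of 45101 probe sets, 34945 had 1 symbol in the platform annotation, 932 several, 9160 none, and 64 were controls. A probe set with several symbols named no gene, which left out 10 for the members.

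Intensities were taken as log2(intensity + 16). Each gene was represented by its brightest probe set with 1 symbol, and entered the test if, on 2 or more of 5 arrays, that probe set exceeded the array's 40th percentile. The model was lmFit of limma 3.58.1 under R 4.3.3, with a term for group alone and trended eBayes; p-values were two-sided, adjusted by Benjamini-Hochberg over all genes and called under 0.05. A second fit covered all probe sets that passed the filter. The gene fit was also run on simulated arrays, and the probe set fit was not. On those arrays the gene fit called 4% of log2 changes of 0.5 and 62% of changes of 1. Of all its calls there, 7.81% were false. No pair of arrays was a copy, with at most 0.947% of values equal. Levels of different probe sets were set side by side to choose a gene's brightest one and to name others bright or dim. They were summed for the myeloid markers.

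The members, lists, tests and rule for named genes were chosen with earlier results of these data known. The rule named members called or with discordant probe sets, the 2 largest positive and negative changes in each complex, and a set panel. Other names were chosen after their values were seen. Alternatives were quantile normalization, median centring, other filters and pseudocounts, variance settings, array weights, a block for bioC or replicate number, other choices of probe set, and leaving out each array.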

Additional observations from a re-analysis of the deposited data

How the results depend on the processing

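The count of member genes called higher, 1, became 5 with quantile normalization, 2 with a filter at the 60th percentile or robust variances, 8 with the bioC block and 4 with the mean of probe sets or with probe sets without a suffix; leaving out 1 array gave 0 to 4. Member genes called lower numbered 1 with the bioC block and 0 to 1 when 1 array was left out. Member probe sets called higher, 4, became 8 with quantile normalization, 2 with no filter or no trend and 16 with the bioC block, and 0 to 4 without 1 array; those called lower became 1 with the bioC block and 0 to 1 without 1 array. The deviations of same-numbered arrays of the groups had r = 0.17 for number 1 and -0.13 for number 2. With 2 naive arrays, r with naive 1 is the negative of r with naive 2 (0.17 and -0.17 for activated 1). These values therefore cannot decide whether the numbers pair the samples. The replicate block leaves activated 3 alone in its block. The changes in that fit therefore equal those without activated 3 (median of all members 0.21 in both). With the replicate block 11 member genes were called higher and 1 lower, 10 member probe sets higher and 1 lower, and the median of complex II was 0.38. That median was 0.39 with probe sets without a suffix and ran from 0.21 to 0.38 without 1 array. The median of complex III was 0.18 with the mean of probe sets, and that of complex V ran from 0.079 to 0.40 without 1 array. Among all genes tested, the share called higher also moved, from 6.36% in the fit as reported to 8.46% with the bioC block. The share called lower moved from 4.14% to 6.67%. For the other alternatives, and for probe sets, no such share is given here. The counts of called members are therefore not read as a result about the members. Of 62 named member genes, 24 changed sign under at least 1 alternative, and none of these was called in the fit as reported.

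With the mean of probe sets the reversed log2 changes were those of Atp5c1 (-0.10), Atp5d (0.20), Atp5j2 (0.19), Cox6a1 (0.15), Ndufa10 (-0.13), Ndufa12 (0.084), Ndufab1 (-0.21), Ndufb11 (0.0062), Ndufb7 (0.12), Ndufs4 (-0.13), Sdha (0.18) and Uqcrq (-0.15). With probe sets without a suffix they were Atp5c1 (-0.52), Atp5h (0.010), Atp5j2 (0.39), Cox5b (-0.97), Cycs (-0.046), Ndufa12 (0.18), Ndufa5 (0.15), Ndufab1 (-0.13), Ndufb11 (0.16), Ndufb2 (-0.50), Ndufb7 (0.25), Ndufv1 (0.16) and Uqcrq (-0.77), and, outside the members, Atpif1 (-0.12) and Oxa1l (-0.19). These 2 alternatives use other probe sets. With quantile normalization Atp5d (0.0047), Atp5j2 (0.018) and Ndufb7 (0.011) reversed, with array weights Atp5d (0.0031), with the bioC block Atp5d (0.039) and Ndufb7 (0.036), and with the replicate block Atp5j2 (0.028), Cox5a (-0.016), Cox6a1 (0.0845), Ndufb7 (0.028) and Uqcrc2 (-0.11). Leaving out 1 array reversed Atp5d (-0.18 to 0.18), Atp5j2 (-0.31 to 0.26), Cox5a (-0.20 to 0.38), Cox6a1 (-0.10 to 0.0845), Cox6a2 (-0.13 to 0.47), Cox8c (-0.28 to 0.033), Ndufa10 (-0.20 to 0.39), Ndufa12 (-0.20 to 0.072), Ndufa4l2 (-0.28 to 0.54), Ndufaf5 (-0.39 to 0.23), Ndufb11 (-0.24 to 0.082), Ndufb7 (-0.37 to 0.36), Ndufs4 (-0.0026 to 0.18), Ndufv1 (-0.32 to 0.19), Sdha (-0.17 to 0.0925) and Uqcrc2 (-0.24 to 0.27). Where no construction is named, the cause was not tested.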
